A study of Mus musculus with 6 samples.

Results

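Among CD11b+ cells of mouse brain with and without glioma, 96 dividing cells carried almost no RNA of the microglial genes P2ry12, Tmem119, Siglech and Gpr34. They were chosen from 22157 cells that passed the filters, by at least 4 UMIs (distinct RNA molecules) summed over the proliferation genes Mki67, Top2a, Birc5, Cenpf and Ube2c and at most 1 UMI summed over the 4 microglial genes. Of the 96 cells, 70 held monocyte or macrophage RNA (Ms4a7, Ly6c2, Plac8 or Ccr2) and 3 held mostly cytotoxic RNA (Nkg7, Gzma). Another 2 were sorted by the dendritic cell genes Flt3 and Ccr7, but both carried B cell markers. The other 21 had too little of any of these genes to be sorted. Because measured RNA chose the cells and sorted them, the levels of these genes are described and not tested.

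A cell about to divide copies its DNA in S phase with replication factors such as the MCM helicase, makes nucleotides and histones for the new chromatin, and then builds a spindle in mitosis. Mki67 encodes a protein that coats mitotic chromosomes, Top2a a topoisomerase that untangles DNA, Birc5 the survivin subunit of the chromosomal passenger complex, Cenpf a kinetochore protein and Ube2c a ubiquitin-conjugating enzyme of the anaphase-promoting complex. Microglia are the resident macrophages of the brain and renew themselves by division within it. Monocytes are made by dividing progenitors in bone marrow, enter tumors from the blood and can become macrophages there, and T cells divide after meeting their antigen.

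The study took whole brains from female and male C57BL/6 control mice, and the tumor-bearing hemispheres of female and male mice 14 or 21 days after glioma implantation, all 12 weeks old. Brains were flushed with ice-cold saline before enzymatic dissociation, and CD11b+ cells were studied by CITE-seq, which reads RNA and antibody-bound barcodes in the same droplet. Each of 3 pools joined 6 samples, 1 from each sex and tumor group, told apart by hashtag antibodies. The labels do not say which hashtag marked which group, so sex, tumor and day were not compared, and a hashed sample is named here by its pool and hashtag number. How many animals stand behind a hashed sample is not given in the labels, so p-values over hashed samples measure the spread between these samples. All groups share the CD11b selection, which favours myeloid cells and leaves out most lymphocytes, so the T, B and NK cells described below are those that came through it.

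The RNA libraries held 74848339, 107880924 and 71510276 UMIs in 13925, 11010 and 11820 barcodes of pools 1, 2 and 3. The top hashtag reached 80% of hashtag UMIs in 79.2% of filtered cells of pool 1 and 87.5% of pool 2, but in 16.1% of pool 3, which gave 6 of the 96 cells. The median cell had 4451, 8129 and 4689 UMIs in the 3 pools. Between 32 and 53 barcodes were shared by any pair of pools. The hashtag rule removes droplets that mix differently hashed samples, and no doublet caller was run, so droplets that hold a pair of cells of 1 sample are still among the cells described.

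The 96 cells were spread unevenly over the hashed samples. Pool 1 gave 2, 0, 9, 7, 18 and 7 cells under hashtags 1 to 6, pool 2 gave 1, 1, 13, 8, 16 and 8, and pool 3 gave 0, 0, 0, 1, 3 and 2. Hashtag 5 had the most in every pool, and hashtags 1 and 2 together had 4. At the edge of the rule, 37 cells had exactly 4 cycle UMIs and 61 more had 3, while 45 members had 1 microglial UMI, 51 had 0 and 24 dividing cells just outside had 2. Without the hashtag rule the number of members would be 103.

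**Figure D1:**
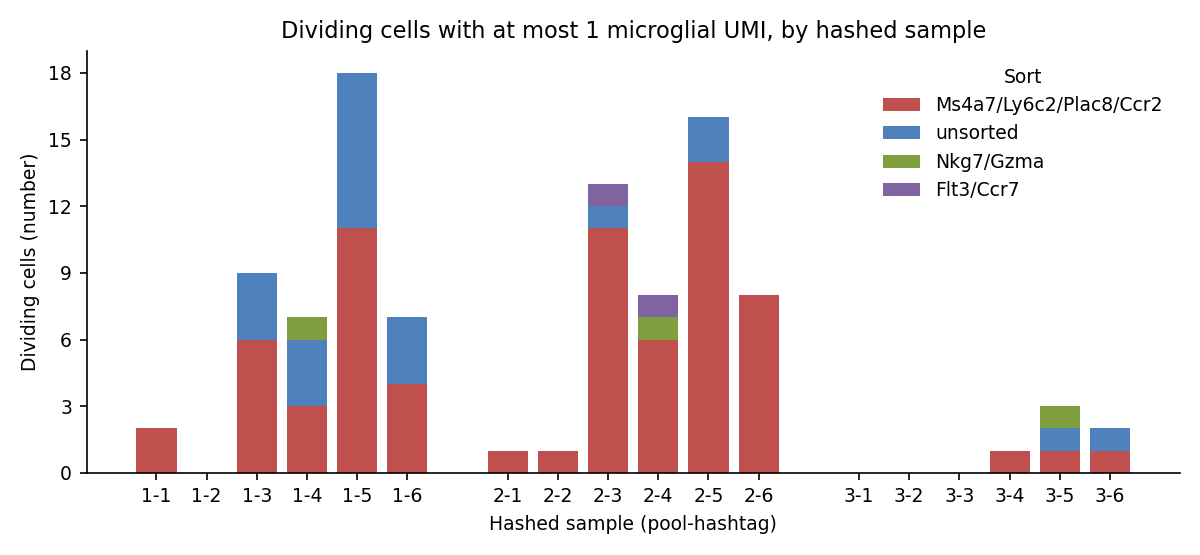
Number of dividing cells with at most 1 microglial UMI in each of 18 hashed samples, named pool-hashtag, with colours for the sort by lineage genes. Unsorted cells are most numerous in pool 1 (16 of 21), and hashtag 5 is the tallest bar in each pool.

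A second set of genes, not used by the rule, was read to see how much other cell cycle RNA each member held. It contains the 58 genes of 157 in fixed cell cycle and DNA repair lists that were seen in under 1% of the 7713 cells with no cycle UMI and at most 1 microglial UMI, here called non-dividing. These genes rise and fall with the rule's own genes and are no independent evidence, so the counts are a description. Of the non-dividing cells, 1.18% had 3 or more UMIs of the 58 genes. Of the 96 members 58 did (60.4%, exact binomial 95% interval 49.9 to 70.3), against 393 of 412 dividing cells with 2 or more microglial UMIs (95.4%). Intervals on shares cover counting error only. At exactly 4 cycle UMIs the share was 27.0% of 37 cells, and at 6 or more it was 45 of 51.

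The sorts held other cycle RNA to different extents. In the monocyte/macrophage sort 35 of 70 members had 3 or more UMIs of the 58 genes and 21 had none. Among the unsorted members 19 of 21 (90.5%) did, at a median of 9 UMIs, although their median depth was 3663 RNA UMIs against 10184.5, as did 2 of 3 members of the Nkg7/Gzma sort and 2 of 2 of the Flt3/Ccr7 sort. Mki67 stood apart from the other rule genes in the monocyte/macrophage sort. For 21 members of the monocyte/macrophage sort all cycle UMIs came from Mki67, and 1 of those 21 had 3 or more UMIs of the 58 genes, against 34 of the other 49 (69.4%). Mki67 had a UMI in 53 of the 70, more than Ube2c (35), Birc5 (32), Top2a (31) or Cenpf (20). In unsorted members the order was another, with Birc5 in 19 of 21, Ube2c in 17, Top2a in 14, and Mki67 and Cenpf in 10 each. Also below the rule's threshold, in cells with 1 to 3 cycle UMIs, Mki67 made up 58.6% of the cycle UMIs in the monocyte/macrophage sort and 10.0% in unsorted cells with 2 or more microglial UMIs. Set against the label of dividing cells, 58 of 96 members thus held other cycle RNA at this level and 38 did not, of which 35 were in the monocyte/macrophage sort.

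Expressed per 10000 RNA UMIs and averaged over hashed samples, the 58 genes reached 26.5 in unsorted members and 15.2 in monocyte/macrophage members of the same 8 samples. The difference of 11.3 ± 19.1 (SD, n = 8) was positive in 6 of 8 samples and did not pass an exact sign permutation test (two-sided p = 0.148, adjusted p = 0.223 over 3 relations). Against dividing cells with microglial genes, monocyte/macrophage members were lower by 22.3 on average (SD 22.9, n = 13) and higher in 2 of 13 samples (exact permutation p = 0.00342, adjusted p = 0.0103). The 2 sets also differed in UMIs of the rule's own genes, with medians of 5 over all 70 and 11 over all 412 cells. The 58 genes were chosen on non-dividing cells, of which 6226 of 7713 were of the monocyte/macrophage sort. This p-value is therefore no independent evidence that the sets divide to different extents. Unsorted members and dividing cells with microglial genes differed by -0.109 ± 13.2 (SD, n = 8), with differences from -16.4 to 23.7 (exact permutation p = 1.0). With 8 samples the smallest p this test allows is 0.00781.

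**Figure D2:**
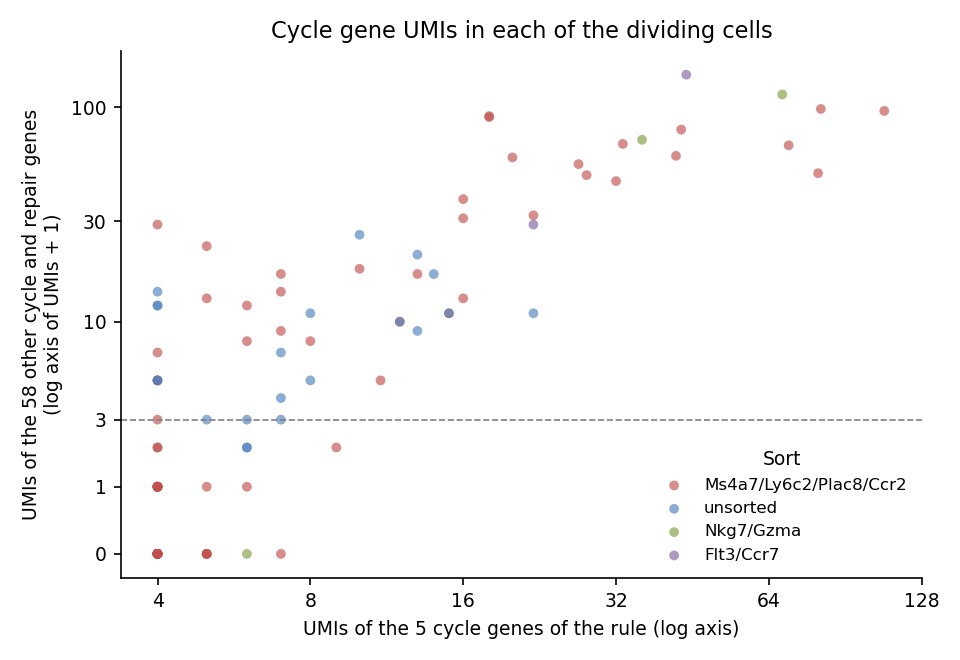
UMIs of the 5 rule genes (x, log axis) and of the 58 other cycle and repair genes (y, log axis of UMIs + 1) in each of the 96 members, coloured by sort. The dashed line marks 3 UMIs, which 35 of 70 monocyte/macrophage members and 19 of 21 unsorted members reach.

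The monocyte/macrophage sort, the largest, held most of the dividing cells, while the share of dividing cells was highest among unsorted cells. Of 7348 monocyte/macrophage cells 70 were dividing (0.953%, 95% interval 0.743 to 1.20). Of 687 cells sorted by Nkg7 and Gzma 3 were (0.437%, 0.0901 to 1.27), and of 395 cells sorted by Flt3 and Ccr7 2 were (0.506%, 0.0614 to 1.82). Of 610 unsorted cells 21 were dividing (3.44%, 2.14 to 5.21). With 3 or more UMIs of the 58 genes also required, the shares were 0.476%, 0.291%, 0.506% and 3.11%. Every cell was also thinned to 2000 RNA UMIs, which left out 507 cells too shallow for it (163 of the monocyte/macrophage sort and 215 unsorted). The monocyte/macrophage share was then 0.236% (15 of 6366) and the unsorted share 0.991% (13 of 1312). Unsorted cells numbered 1312 after thinning and 610 before, so the thinned shares are not of the same sets of cells. These are shares of cells that the rule itself defines, so no test was made.

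**Figure D3:**
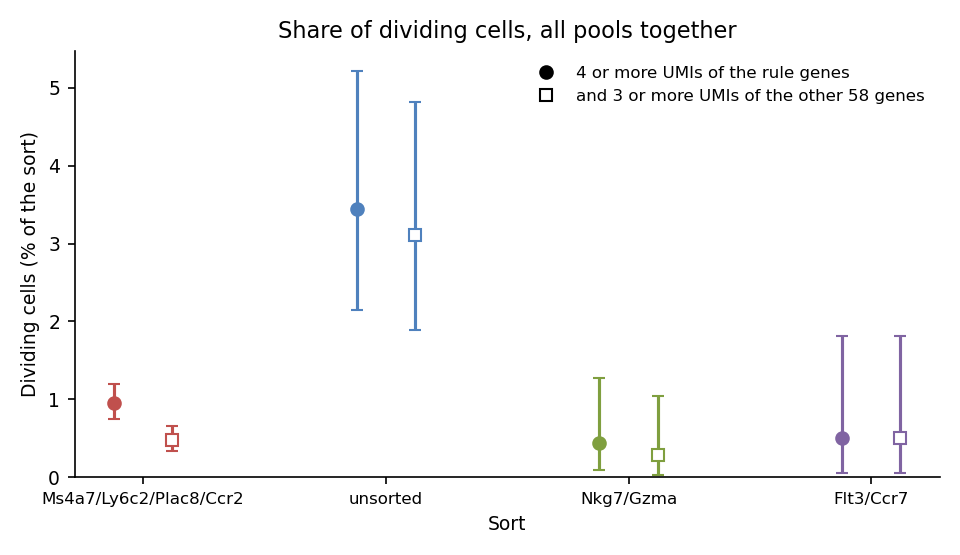
Share of dividing cells (%) within each sort over all pools, with exact binomial 95% intervals. Filled circles show the rule's cells and open squares those with 3 or more UMIs of the 58 other genes; the unsorted cells have the highest share by both counts.

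Across pools the monocyte/macrophage share was 0.697% in pool 1 (26 of 3728), 1.33% in pool 2 (41 of 3086) and 0.562% in pool 3 (3 of 534). The intervals of pools 1 (0.456 to 1.02) and 2 (0.955 to 1.80) overlapped at their ends. This does not show the shares to be alike, and the pools were not tested against each other. Pool 2 was also the deepest pool. The unsorted share was 4.28%, 1.52% and 5.13%, with 16, 3 and 2 cells. Within pool 1 the monocyte/macrophage share was 0.788%, 0.329%, 0.938% and 0.47% under hashtags 3 to 6, and within pool 2 it was 1.74%, 0.705%, 1.85% and 0.988%. In both pools hashtags 3 and 5 were above hashtags 4 and 6, while pool 3 had at most 1 such cell under any hashtag. A number shared by the pools is not known to mark the same group, and the hashtags within a pool were not tested against each other. Under hashtags 1 and 2, where the monocyte/macrophage sort held only 63 cells, 4 were dividing (6.35%, 1.76 to 15.5) and all 4 had 3 or more UMIs of the 58 genes, while 0 of 58 unsorted cells were dividing, which allows a share of up to 5.17%. Under hashtags 3 to 6 the monocyte/macrophage share was 0.906% (66 of 7285).

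Over all 70 members of the monocyte/macrophage sort, dividing and non-dividing cells split alike between the monocyte and the macrophage side. A cell was placed on the monocyte side where Ly6c2 and Plac8, genes of classical monocytes, exceeded Ms4a7, a membrane protein gene of macrophages, and on the macrophage side in the reverse case. The monocyte side held 53 of 70 dividing cells (75.7%, 64.0 to 85.2) and 75.7% of 6226 non-dividing cells, the macrophage side 14 of 70 dividing cells and 22.5% of non-dividing ones. The share that divided was 0.964% on the monocyte side and 0.823% on the macrophage side. Among the 35 members with 3 or more UMIs of the 58 genes, 22 were on the monocyte side (62.9%, 44.9 to 78.5) and 10 on the macrophage side. Of the 21 members whose cycle UMIs all came from Mki67, 20 were on the monocyte side. With 3 or more UMIs of the 58 genes required, the shares that divided had the reverse order. They were 0.400% (0.251 to 0.605) on the monocyte side and 0.588% (0.282 to 1.08) on the macrophage side. The intervals of both pairs of shares overlapped, which does not show that the shares are alike.

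Lineage markers of the 70 dividing monocyte/macrophage cells were read beside those of their non-dividing neighbours. At least 3 of 7 monocyte markers (Ly6c2, Plac8, Ccr2, Chil3, Vcan, Hp, Fn1) had a UMI in 40 of 70 (57.1%) and in 71.2% of non-dividing cells. Apoe, an apolipoprotein, stood at 73.1 UMIs per 10000 in dividing and 112 in non-dividing cells. Other macrophage genes went both ways. Ms4a7 (3.22 and 5.23), Trem2 (2.68 and 3.42) and Ctsd (8.71 and 9.05) were also lower in dividing cells. C1qa (30.4 and 25.7), C1qb (27.0 and 25.4), C1qc (18.4 and 16.1), Gpnmb (3.48 and 2.41), Arg1 (4.46 and 4.29) and Mrc1 (0.471 and 0.297) had the other order. The antigen-presentation gene H2-Ab1 stood at 68.0 and 79.6. Median depth was 10184.5 RNA UMIs in dividing and 7885.5 in non-dividing cells.

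Some members carried markers of cells other than monocytes, macrophages or microglia. With a UMI in at least 3 genes of a marker list as the criterion, 5 members had T cell markers (Cd3e, Cd3d, Cd3g, Trac, Cd8a, Cd4), 2 had NK markers, 2 had B cell markers and 4 had neutrophil markers. Several of these cells were among the members richest in cycle RNA. The 7 such cells inside the monocyte/macrophage sort all had between 23 and 96 UMIs of the 58 genes. Without them 63 monocyte/macrophage members remained, of which 28 had 3 or more UMIs of the 58 genes.

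Neutrophil-marked cells numbered 4, all in the monocyte/macrophage sort. They came from pool 1 hashtag 1, pool 2 hashtag 3 (2 cells) and pool 2 hashtag 5. Camp, which encodes the cathelicidin of secondary granules, had 947, 1099, 1251 and 654 UMIs in these cells, and Ngp, neutrophilic granule protein, had 1136, 989, 1542 and 490. Ltf, lactoferrin, had 109, 143, 223 and 63 UMIs. Elane and Mpo, genes of primary granules and earlier progenitors, had no UMI in any of the 4. They held 12338 to 24471 RNA UMIs, 5 to 42 cycle UMIs and 23 to 91 UMIs of the 58 genes. In the Gr-1 antibody tag, which binds Ly6G and Ly6C of neutrophils and monocytes, their centred log ratios were 2.06, 3.46, 2.56 and 2.48. In non-dividing monocyte/macrophage cells, 0.434% carried 3 or more neutrophil markers. A UMI of Camp was found in 4 of 70 dividing monocyte/macrophage cells, against 0.691% of non-dividing ones.

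T cell markers were found in 5 members, of which the sort had put 3 with the monocyte/macrophage cells and 2 with the Nkg7/Gzma cells. The richest, from pool 2 hashtag 6, held 46486 RNA UMIs from 6203 genes, the most of any member. It had 10 Cd3e, 32 Trac, 12 Foxp3, 118 Gzmb and 108 cycle UMIs, where Foxp3 encodes the defining factor of regulatory T cells and Gzmb a cytotoxic protease. The same cell had 126 H2-Ab1 and 15 Ccr2 UMIs. A cell of pool 2 hashtag 4 held 11 Cd3e, 32 Trac, 4 Cd4 and 68 cycle UMIs in 12216 RNA UMIs, with no H2-Ab1. A cell of pool 1 hashtag 4 in the monocyte/macrophage sort had 10 Trac, 11 Gzmb and 63 H2-Ab1 UMIs, and one of pool 1 hashtag 6 had 17 Trac, 21 Nkg7 and 4 H2-Ab1 UMIs. Whether cells with both T cell and antigen-presentation RNA are single cells or droplets with a pair of cells was not tested. The fifth, from pool 1 hashtag 4, had only 1370 RNA UMIs and none of the 58 genes.

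The only dividing member with NK genes and no T cell gene came from pool 3 hashtag 5. It had 321 Gzma, 50 Nkg7, 16 Ncr1, 5 Klrb1c and 33 Gzmb UMIs with 36 cycle UMIs and 71 UMIs of the 58 genes, where Ncr1 encodes an activating receptor of NK cells. Of non-dividing cells in the Nkg7/Gzma sort, 92.6% had 3 or more NK markers and 3.15% had 3 or more T cell markers. Of the 3 dividing ones, 2 had 3 or more T cell markers and 2 had 3 or more NK markers.

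Both dividing cells of the Flt3/Ccr7 sort were B cell-marked. The cell of pool 2 hashtag 3 had 8 Cd79a, 17 Cd79b and 6 Ms4a1 UMIs, which encode parts of the B cell receptor complex and CD20, beside 4 Ccr7 and no Flt3 UMIs. The cell of pool 2 hashtag 4 had 17 Cd79a, 6 Cd79b, 3 Ms4a1, 7 Ccr7 and 1 Flt3 UMIs. B cells express Ccr7 as well as migrating dendritic cells do. Neither cell had 3 or more of the migratory dendritic cell markers (Ccr7, Fscn1, Ccl22, Cacnb3, Il4i1), which 74.9% of non-dividing cells of the sort had. They were large, with 19739 and 31879 RNA UMIs. The first also had 11 Ly6c2, 106 Apoe, 91 C1qa and 9 Csf1r UMIs, and the second 0, 0, 4 and 0, and whether the first is a single cell was not tested. Both had a UMI in 3 or more of 5 plasmacytoid dendritic cell markers (Siglech, Bst2, Ly6d, Tcf4, Cox6a2), among which Ly6d is also a B lineage gene. Conventional dendritic cell markers appeared instead in the monocyte/macrophage sort, where 6 of 70 members (8.57%) had 3 or more of 5 type 1 markers (Xcr1, Clec9a, Cd24a, Irf8, Wdfy4) against 1.85% of non-dividing cells, and 4 (5.71%) had 3 or more of 5 type 2 markers (Cd209a, Clec10a, Itgax, Irf4, Sirpa) against 4.64%. The cell with most RNA UMIs and T cell markers is counted in both. Per 10000 UMIs, the type 1 markers stood lower in members of that sort (3.45) than in its non-dividing cells (3.95), and the type 2 markers slightly higher. All 6 members with type 1 markers held at least 10781 RNA UMIs, against a median of 7885.5 in non-dividing cells. A count of genes with a UMI favours deep cells, so the shares do not show more type 1 RNA in dividing cells.

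Most of the 21 unsorted members carried C1qa, Cd81 and Olfml3, genes known from microglia that the rule did not use. C1qa, a complement subunit, had a UMI in 20 of 21 cells (95.2%). Cd81, a tetraspanin, also had a UMI in 20 cells, Olfml3 in 14 (66.7%), Sparc in 12 (57.1%) and the microglial transcription factor Sall1 in 3. For comparison, in 634 non-dividing cells of the Nkg7/Gzma sort, which had a like depth (median 2904.5 UMIs against 3663), C1qa had a UMI in 29.8%, Cd81 in 10.4%, Olfml3 in 3.63%, Sparc in 6.62% and Sall1 in 0.946%. The 499 non-dividing unsorted cells, at a median of 2574 UMIs, lay between, with C1qa in 73.5%, Cd81 in 59.3%, Olfml3 in 26.7%, Sparc in 32.1% and Sall1 in 5.01%, so that carrying these genes is shared with unsorted cells that were not dividing. The 70 monocyte/macrophage members, at a deeper median of 10184.5 UMIs, had C1qa in 75.7%, Cd81 in 51.4%, Olfml3 in 38.6%, Sparc in 18.6% and Sall1 in 4.29%. In the 6226 non-dividing cells of that sort, at a median of 7885.5 UMIs, the shares were 67.0%, 24.3%, 27.4%, 9.44% and 1.51%. Each was thus seen in a larger share of dividing cells there too. The fit described below called Cd81 higher in dividing cells of that sort (log2 fold change 2.13, edgeR adjusted p = 3.1e-08). Per 10000 UMIs, Cd81 stood at 19.7 in unsorted members, 1.58 in monocyte/macrophage members and 26.4 in unsorted dividing cells with microglial genes, and Olfml3 at 4.27, 0.701 and 8.84. Sparc was lower in unsorted members (2.85) than in unsorted dividing cells with microglial genes (16.3), as was Csf1r, the receptor for the macrophage growth factor CSF1 (4.93 and 11.4). Cst7, a cystatin of activated microglia, stood at 5.25 and 3.82. The label of cells without microglial markers thus holds for the 4 genes of the rule, and most unsorted members did carry C1qa, Cd81, Olfml3 or Sparc, which are not specific to microglia.

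One gene was carried by few of the unsorted members. Hmox1, heme oxygenase, stood at 34.9 UMIs per 10000 in them against 0.963 in unsorted dividing cells with microglial genes and 1.59 in monocyte/macrophage members, but only 7 of the 21 cells had a UMI of it, against 61.4% of monocyte/macrophage members. The 21 cells had no UMI of the T cell and NK marker lists.

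Antibody tags, which neither the rule nor the sort used, set the unsorted members apart from the monocyte/macrophage members of the same samples. On the centred log ratio scale (natural log, each of 10 tags against the mean of all 10 in a cell), the TMEM119 tag of unsorted members ranged over 8 hashed samples from -1.94 to -0.412 with a median of -1.17, and that of monocyte/macrophage members from -3.14 to -1.83 with a median of -2.55. The highest monocyte/macrophage sample reached into the range of the unsorted ones, so the groups overlapped, but within each sample the unsorted members were higher. The difference was 1.37 ± 0.73 (SD, n = 8), positive in 8 of 8 samples (exact sign permutation test, two-sided, p = 0.00781, the smallest 8 samples allow, adjusted p = 0.0469 over 30 tests). The CD45 tag, which marks blood-derived leukocytes more strongly than microglia, was lower in unsorted members in 8 of 8 samples, by 0.956 (SD 0.541; exact permutation p = 0.00781, adjusted p = 0.0469). Its level ranged from -0.223 to 0.785 (median 0.481) in unsorted and from 0.950 to 1.93 (median 1.24) in monocyte/macrophage members. Both results depend on the scale. As log2 of tags per 1000 plus 1, CD45 differed by -0.820 and was higher in 2 of 8 samples (adjusted p = 0.192, exact permutation), and TMEM119 differed by 2.01 and was higher in 8 of 8 (adjusted p = 0.0781). Unsorted members carried fewer tags in all, with a median of 1721 tag UMIs per cell against 11103, and on log2 of the raw TMEM119 count plus 1 the difference was -0.39. With these comparisons chosen after the RNA had been seen, and with 1 to 7 unsorted cells in a sample, the adjusted p-values are close to the threshold of 0.05. Without pool 1, 2 or 3 the TMEM119 differences were 1.58, 1.24 and 1.35 and those of CD45 -1.10, -1.10 and -0.720, at adjusted p-values of 0.469, 0.156 and 0.0938 by the exact permutation test, which fewer samples keep from going lower.

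Against dividing cells with microglial genes, no tag of the unsorted members passed the adjusted threshold in any of 10 tests, and 1 had an unadjusted p under 0.05. TMEM119 differed by -0.176 ± 0.552 (SD, n = 8), with differences between -0.763 and 0.828 (exact permutation p = 0.391), and CD45 by -0.140 ± 0.364 (exact permutation p = 0.312). The MHC class II tag was lower by 0.331 on average (SD 0.389) and higher in 2 of 8 samples, with an exact permutation p of 0.0391 that adjustment raised to 0.107. Monocyte/macrophage members, compared with dividing cells with microglial genes over 13 samples, had more CD49d tag in 13 of 13 samples (0.638 ± 0.390, SD; exact permutation p = 2.44e-04, adjusted p = 0.00366), where CD49d is an integrin subunit of bone marrow-derived myeloid cells. Their CD45 tag was higher in 12 of 13 (0.717 ± 0.569, SD; adjusted p = 0.00488, exact permutation) and their CD11b tag higher in 1 of 13 (-0.541 ± 0.610, SD; adjusted p = 0.0476, exact permutation). As log2 of tags per 1000 plus 1, CD49d (0.455, higher in 10 of 13, adjusted p = 0.138) and CD45 (0.529, 9 of 13, adjusted p = 0.201) did not pass the exact permutation test. On log2 of the raw count plus 1 the CD11b difference had the other sign, 0.90. Their TMEM119 tag was lower by 2.19 on average, a difference that follows the rule, which used Tmem119 RNA to part these cells. The rule used no CD49d, CD45 or CD11b tag, but RNA of microglial and of monocyte or macrophage genes parted the 2 sets. The p-values of these tags are therefore no independent evidence of lineage. Without pool 1 or pool 2 none of the 4 tags passed (adjusted p from 0.117 to 0.469, exact permutation), with CD49d at 0.683 and 0.552 and CD45 at 0.749 and 0.913. The CCR2 tag, read in pools 2 and 3 alone, had medians in pool 2 of 54 UMIs in 41 monocyte/macrophage members, 60 in their non-dividing neighbours, 17 in 3 unsorted members and 24 in dividing cells with microglial genes. These are raw counts of sets that differ in their tag totals, so they do not rank the sets.

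**Figure D4:**
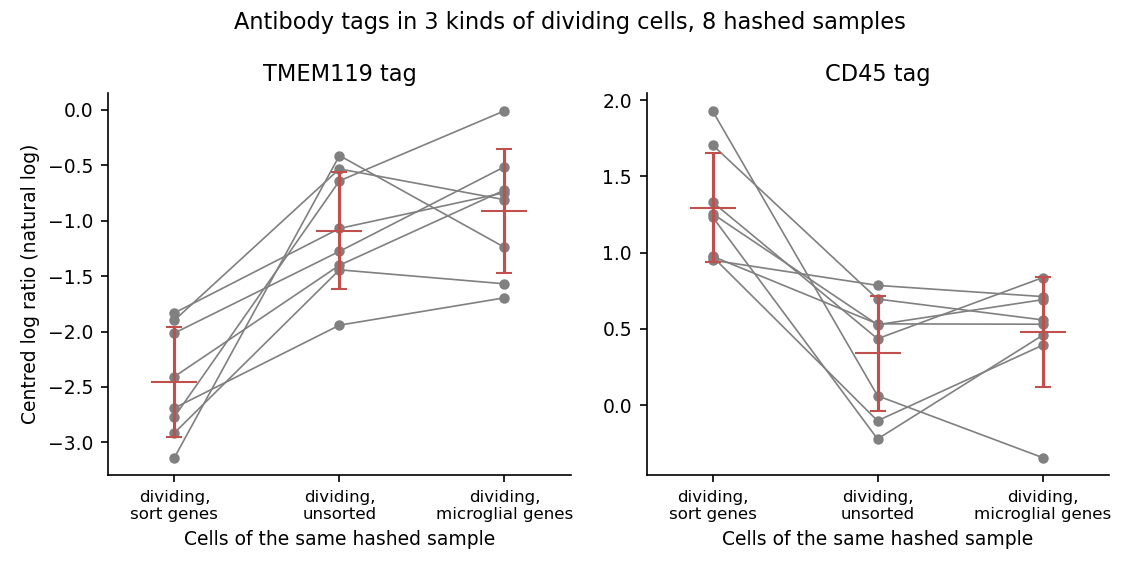
TMEM119 and CD45 tags (centred log ratio, natural log) in dividing cells of the same hashed sample: monocyte/macrophage members, unsorted members and dividing cells with 2 or more microglial UMIs. Grey points joined by lines are 8 hashed samples, and red marks show mean ± SD; unsorted members lie above monocyte/macrophage members for TMEM119 and below them for CD45 in all 8.

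The RNA of dividing and non-dividing cells was compared across the transcriptome in the monocyte/macrophage sort, the only sort with enough members. Hashed samples with at least 10 cells in each arm were pool 1 hashtag 5 (11 dividing and 992 non-dividing cells), pool 2 hashtag 3 (11 and 513) and pool 2 hashtag 5 (14 and 602), so that 36 members entered the fit. UMIs were summed per sample and arm and tested with edgeR's quasi-likelihood test with hashed sample as a block and Benjamini-Hochberg adjustment over 8791 genes, whose adjusted p-values are given below. At an adjusted p under 0.05, 98 genes were higher in dividing cells (1.11% of those tested), 81 were lower (0.921%), and 179 differed either way (2.04%). The median log2 fold change of all genes was -0.17. With library size alone as the scaling, 110 were higher and 49 lower at a median of -0.07, and DESeq2 called 71 and 13 at a median of -0.09. Leaving out pool 2 hashtag 3 gave 50 higher and 68 lower, leaving out pool 2 hashtag 5 gave 61 and 40, and leaving out pool 1 gave 99 and 40. Of the 36 members 18 had 3 or more UMIs of the 58 genes, and the set includes 3 of the neutrophil-marked cells. The sorts by Nkg7 and Gzma and by Flt3 and Ccr7 had no hashed sample with 10 dividing cells and gave no test.

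Among the fixed lists, that of spindle, kinetochore and cytokinesis genes had the most genes called higher in dividing cells. Cycle genes are co-expressed with the rule's genes, so their direction follows from the choice of cells and is given as a description. Of 34 spindle, kinetochore and cytokinesis genes 19 passed the filter on low counts and 16 were called higher, at a median log2 fold change of 4.69 beside -0.17 over all genes. Of 19 cohesion, condensation and anaphase genes 15 passed the filter and 10 were called, at a median of 1.93. Without pool 2 hashtag 3 the calls in these lists were 7 of 17 and 5 of 15, and without pool 2 hashtag 5 they were 9 of 18 and 7 of 14. Of 24 cyclins and cell cycle kinases 16 passed and 7 were called higher, with a median of 2.12. Ccnd1, cyclin D1 of the same list, was called lower (-1.91, edgeR adjusted p = 0.0017). It had a UMI in 19.4% of dividing and 30.2% of non-dividing cells. Among S phase lists, 2 of 19 tested of 31 replication genes were called higher, 4 of 13 of 16 nucleotide synthesis genes and 5 of 10 of 15 histone and chromatin assembly genes, with medians of 1.19, 0.69 and 1.77. Since only genes expressed enough in the dividing cells pass the filter, these medians do not describe the whole lists.

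Single cycle genes are described under the same limit, so their p-values are no independent evidence that the cells divide. Pclaf, which binds the replication clamp PCNA, was the cycle gene with the largest difference. It had 7, 58 and 14 UMIs in the 11, 11 and 14 dividing cells of pool 1 hashtag 5, pool 2 hashtag 3 and pool 2 hashtag 5, or 109, 466 and 81.9 CPM (UMIs per 1000000 of the summed cells), against 1.45, 0.366 and 0.788 CPM in non-dividing cells (log2 fold change 7.58, SE 0.51, adjusted p = 6.9e-47). The sample of pool 2 hashtag 3 was the highest, and 31 of its 79 UMIs over the 3 samples lay in the neutrophil-marked cells. Ccnb2, cyclin B2 of mitotic entry, had 46.8, 153 and 76.0 CPM against 1.29, 2.19 and 0.473 (6.09, SE 0.70, adjusted p = 2.4e-15), and a UMI in 12 of 36 dividing cells (33.3%) against 0.949% of non-dividing ones. All 35 of its UMIs were in the 18 members with 3 or more UMIs of the 58 genes, of which Ccnb2 is one. Nusap1, a spindle microtubule protein, Ccna2, cyclin A2, Cenpe, a kinetochore motor, and Cdkn3, a phosphatase that acts on cyclin-dependent kinase, had log2 fold changes of 7.36, 6.56, 6.37 and 6.06. Each had a UMI in 19.4% to 27.8% of dividing cells. Uhrf1, which keeps DNA methylation through replication, and Tk1, thymidine kinase, led the S phase genes with 5.48 (adjusted p = 2.1e-05) and 5.11 (4.8e-06). Uhrf1 had 10 UMIs in 5 of 36 cells, of which 6 lay in the neutrophil-marked cells. Cdkn2c, an inhibitor of cyclin D-dependent kinases, was also higher (3.34, SE 0.93, adjusted p = 0.019).

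Outside the fixed cycle lists, many of the largest rises were further mitotic genes. Mitotic genes are co-expressed with the rule's genes on either side of these lists. Their direction follows from the choice of cells, and their p-values are no independent evidence. Pbk, a kinase of mitotic cells, had 109, 80.4 and 29.2 CPM in dividing cells against 0.482, 0 and 0.473 (log2 fold change 7.40, SE 0.85, adjusted p = 2.3e-15). Cdca3, a trigger of mitotic entry, had 109, 56.3 and 52.6 against 0.643, 1.65 and 0.158 (6.37, SE 0.77, adjusted p = 7.5e-14), with a UMI in 13 of 36 dividing cells. Cit, citron kinase of cytokinesis, Dlgap5, a spindle protein, and Tacc3, which stabilises spindle microtubules, rose by 5.95, 4.78 and 3.6 (adjusted p from 2.1e-05 to 0.0023). Lockd, a noncoding RNA gene, rose by 5.45 and Mns1, a cytoskeletal gene known from cilia and meiosis, by 4.57. Atp6v0d2, a proton pump subunit of osteoclasts and macrophages, rose by 4.79 (adjusted p = 1.3e-05), from 12 UMIs in 3 of 36 cells, of which 7 were in 1 cell. These few UMIs set the limit on each such fold change.

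Where promoters of these genes are at hand, they can be set beside the finding, since genes of late cell cycle are known to share CCAAT boxes, bound by NF-Y, and cell cycle homology regions (CHR), bound by the DREAM and MuvB complexes. The 250 bases before the start site were searched on both strands for CCAAT and for the CHR letters TTTGAA or TTCGAA, in RefSeq promoters of GRCm38.p6. Top2a (chr11:99024190-99024439, minus strand), Ccnb2 (chr9:70421555-70421804, minus strand) and Cdkn3 (chr14:46760291-46760540, plus strand) are shown because all are cycle genes high in these cells and hold both motifs. They run 5′ to 3′ toward the start site, with CCAAT boxes and CHR letters of either strand in capitals.
Top2a: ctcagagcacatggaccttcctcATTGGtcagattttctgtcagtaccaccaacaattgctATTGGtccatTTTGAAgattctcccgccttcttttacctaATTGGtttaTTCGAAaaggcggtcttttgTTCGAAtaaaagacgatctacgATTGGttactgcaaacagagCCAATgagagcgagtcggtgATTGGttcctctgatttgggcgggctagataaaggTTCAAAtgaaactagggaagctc
Ccnb2: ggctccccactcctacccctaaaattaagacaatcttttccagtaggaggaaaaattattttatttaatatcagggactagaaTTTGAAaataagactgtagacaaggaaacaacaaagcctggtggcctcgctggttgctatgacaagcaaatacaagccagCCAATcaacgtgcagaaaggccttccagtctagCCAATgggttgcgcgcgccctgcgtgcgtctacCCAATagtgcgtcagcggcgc
Cdkn3: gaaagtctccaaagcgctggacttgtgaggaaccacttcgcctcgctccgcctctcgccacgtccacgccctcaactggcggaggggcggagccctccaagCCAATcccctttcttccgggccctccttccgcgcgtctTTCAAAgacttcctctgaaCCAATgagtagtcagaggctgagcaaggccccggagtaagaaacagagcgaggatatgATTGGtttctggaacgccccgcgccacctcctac
Of 45 genes of the cycle lists that were called higher, 40 had a promoter in the table. A CCAAT box lay in 28 of 40 (70.0%), against 33.8% of 32851 promoters of the genome, and CHR letters in 14 of 40 (35.0%) against 17.1%. Both lay in 12 of 40 against 6.02%. The E2F site letters TTTCCCGC or TTTGGCGC lay in 3 of 40 (7.5%) against 1.30%. In Top2a 6 CCAAT boxes and 4 CHR matches were found, in Ccnb2 3 and 1. Nusap1 and Birc5 had none of these letters in the window. A match of letters is a description of the sequence and does not show binding.

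Neutrophil granule genes were also called higher, and their UMIs lay in 3 cells. Of the 98 genes called higher, 33 had at least 50% of their member UMIs in the 3 neutrophil-marked members of the fit, among them cycle-list genes such as Hmgb2 (276 of 490) and Cks2 (46 of 87). For Camp 3004 of 3004 UMIs were in these 3 cells, for Ngp 3021 of 3022, for Ltf 429 of 429 and for S100a8, a calcium-binding alarmin, 10984 of 11004. Some genes of the monocyte list show the same. Chil3, a chitinase-like lectin of monocytes and neutrophils, rose by 2.0 (SE 0.27, adjusted p = 3.0e-11), with 669 of 900 UMIs in these cells. Hp, haptoglobin, rose by 1.37 with 122 of 185, and Ifitm6 by 1.53 with 107 of 141. The list was not uniform. Clec4e rose by 1.33 with only 8 of 133 UMIs in these cells, and S100a4 fell by 2.13. Without cells bearing 3 or more T, B, NK or neutrophil markers, with 6 samples of at least 5 cells, the log2 fold changes of Chil3, Hp and Ifitm6 were -0.59, -0.17 and -0.50, and 57 genes in all were called higher. Orm1, an acute-phase protein, rose by 6.95 with 13 of 14 UMIs in these cells. Another acute-phase gene, Saa3, rose by 3.52, but 302 of its 354 member UMIs were in 1 cell, and without the marked cells, at 5 cells a sample, it rose by 1.5 (adjusted p = 1.4e-06). It was not called at 5 cells a sample with all members (1.34, adjusted p = 0.17) or without the replicate block (adjusted p = 0.10), and 0 of its 354 UMIs lay in the 18 members with 3 or more UMIs of the 58 genes.

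Some interferon-response and chemokine genes were lower in dividing cells. Of 19 interferon-response genes, all of which passed the filter, 7 fell (Ifit1, Ifit2, Ifit3, Oasl2, Rsad2, Usp18 and Cxcl10), none rose, and the median was -0.82 with none of the 19 above 0. Over all 8791 genes tested 81 fell (0.921%), at a median of -0.17. Ifit3, an interferon-induced antiviral protein, had 343, 225 and 123 CPM in dividing cells of the 3 samples against 557, 860 and 361 in non-dividing cells (log2 fold change -1.53, SE 0.28, adjusted p = 9.2e-06). It was lower in all 3 samples, and a UMI of it was found in 19 of 36 dividing cells (52.8%) and 70.1% of non-dividing cells. The median dividing cell was shallower than the median non-dividing cell in pool 1 hashtag 5 (5517 and 6352.5 RNA UMIs) and pool 2 hashtag 3 (9571 and 10460) and deeper in pool 2 hashtag 5 (10463 and 9791). Ifit2 and Ifit1 fell by 1.43 and 1.40, and Cxcl10, which attracts T cells, by 1.40 (adjusted p = 2.8e-05). For Cxcl10 the levels of pool 1 hashtag 5 lay close together, at 1825 and 2002 CPM, and those of the samples of pool 2 apart, at 442 and 532 against 2325 and 1393. The members with most cycle RNA held little of these transcripts: of 71 Ifit3 UMIs 10 lay in the 18 members with 3 or more UMIs of the 58 genes, and of 36 Ifit2 UMIs 4 did. When members were limited to cells with 3 or more such UMIs, at 5 cells a sample, 12 of 19 fell with a median of -2.20. Of all 8708 genes tested in that fit 142 fell, with a median of -0.33. Without cells bearing T, B, NK or neutrophil markers, at 5 cells a sample, 10 of 19 fell with a median of -0.73. Of all 8364 genes tested there 150 fell, with a median of -0.17. The calls depend on the fit: DESeq2 called 2 of 19 lower with a median of -0.69, and a fit without the replicate block called 0 of 19 with a median of -0.84. Without pool 2 hashtag 5 it was 3 of 19 with a median of -0.85, and Ifit1 (-1.22, adjusted p = 0.10) and Cxcl10 (-1.36, adjusted p = 0.052) no longer passed.

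Of 17 genes for chemokines and cytokines 16 were tested, 5 fell and none rose, at a median of -0.60. Over all 8791 genes tested 0.921% fell, at a median of -0.17. Ccl4, which attracts monocytes and lymphocytes, had 452, 169 and 404 CPM in dividing and 1070, 1058 and 1122 in non-dividing cells (log2 fold change -1.87, SE 0.28, adjusted p = 3.1e-09), so the 3 dividing values lie below the 3 others. Ccl7 and Ccl2, ligands of CCR2, fell by 2.35 and 1.31, Ccl6 by 1.84, and the neutrophil attractant Cxcl2 was the fifth. In the fit, 18 members had 3 or more UMIs of the second gene set. They held 18 of 19 Ccl7, 82 of 119 Ccl4 and 62 of 118 Ccl2 member UMIs. Of Ccl6 they held 9 of 26 and of Cxcl2 87 of 260. With such members alone, at 5 cells a sample, Ccl7, Ccl4, Ccl2 and Ccl6 had log2 fold changes of -1.86, -1.64, -1.67 and -2.42. Ccl2 had a UMI in 63.9% of dividing and 51.6% of non-dividing cells, so that its lower level came with more cells that held a UMI. At 5 cells a sample Tnf was called higher, and 5 of 16 lower. DESeq2 called 4 of 16 lower, and the fit without the replicate block called 1. Without pool 2 hashtag 5, Ccl2 no longer passed (-1.16, adjusted p = 0.12).

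**Figure D5:**
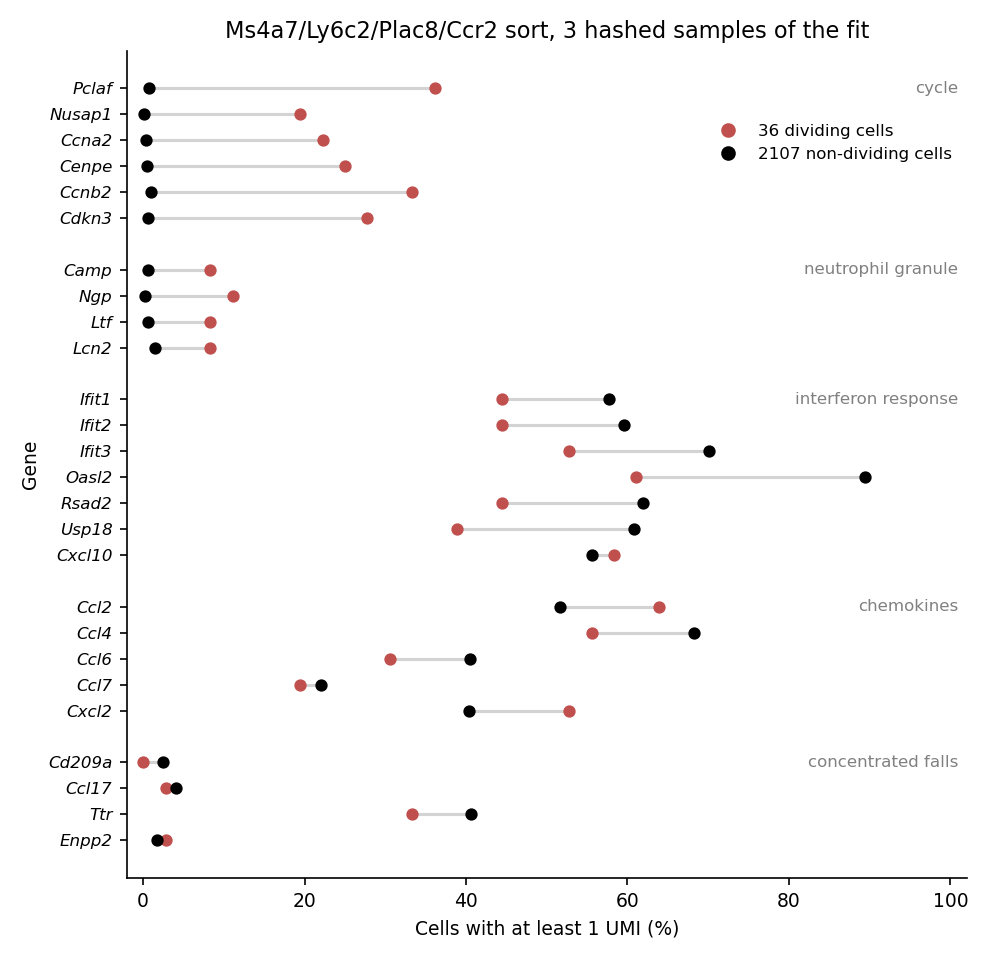
Share of cells (%) with at least 1 UMI of each gene among 36 dividing (red) and 2107 non-dividing (black) monocyte/macrophage cells of the 3 hashed samples in the fit. Cycle genes are seen in under 1% of non-dividing cells, neutrophil granule genes in few cells of either kind, and Ifit3 in 52.8% against 70.1%.

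Other falls were of broad and of narrow kinds. S100a4, a calcium-binding protein of motile leukocytes, had 31.2, 402 and 129 CPM in dividing and 583, 1004 and 550 in non-dividing cells (log2 fold change -2.13, SE 0.29, adjusted p = 1.6e-10), and a UMI in 10 of 36 dividing cells against 59.7%. Ifitm1, an interferon-induced membrane protein, had 31.2, 24.1 and 52.6 against 326, 249 and 339 (-3.11, SE 0.38, adjusted p = 8.3e-14). H2-DMb2, a chaperone subunit of MHC class II loading, fell by 4.23, with a UMI in 1 dividing cell against 15.2% of non-dividing cells. Its value was -1.43 at 5 cells a sample (adjusted p = 0.069) and -1.28 in members with 3 or more UMIs of the 58 genes (adjusted p = 0.41), and it was not called by DESeq2 (adjusted p = 0.15) or without pool 2 hashtag 5 (adjusted p = 0.078). The quiescence gene Btg2 fell by 0.99 (SE 0.27, adjusted p = 0.013) and the receptor gene Tnfrsf1a by 1.13. Btg2 was not called without the replicate block (adjusted p = 0.22), without pool 2 hashtag 5 (0.44), without pool 1 (0.091) or by DESeq2 (0.27), and Tnfrsf1a was called in 6 of 16 other settings. Atf3, Jun and Jund, immediate-early genes that enzymatic dissociation is known to induce, fell by 1.24, 1.06 and 1.26. They were 3 of the 15 genes of that list to change, beside 2.04% of all genes tested. The median over the list was -0.47, beside -0.17 over all genes. Without pool 2 hashtag 5 the list had 0 calls. Of the 81 falls, 50 were of genes seen in over 50% of non-dividing cells.

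The narrow kind came from few non-dividing cells. Ttr, transthyretin of the choroid plexus, fell by 4.82 (SE 0.36, adjusted p = 9.9e-37), yet it had a UMI in 12 of 36 dividing cells and 40.6% of non-dividing ones, and 94.4% of the non-dividing UMIs lay in 22 cells, 1% of them. Enpp2, another gene of the choroid plexus, had 99.2% of its UMIs in 22 cells. The dendritic cell genes Cd209a, Ccl17, Clec10a and Mgl2 are alike in this, with 87.4%, 73.1%, 49.2% and 56.7% in 22 cells. Cd209a had no UMI in the 36 dividing cells, which allows a share of up to 8.33% of cells with a UMI, against 2.47% of non-dividing cells, and no fold is given for it. Ccl24, a chemokine, had 58.8% in 22 cells and Spp1, osteopontin, 52.8%. In all, 7 of 81 falls had at least 50% of their non-dividing UMIs in 22 cells.

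Growth and metabolism lists showed no call. Of 16 genes for ribosome biogenesis and Myc 15 were tested, with 0 called and a median of -0.31. Glycolysis and hypoxia (19 tested, median -0.16), mitochondrial respiration (18, median 0.00), MHC class I (13, median -0.27) and lysosome and lipid genes (16, median -0.30) also had 0 called either way. Of 20 macrophage genes Ctsk, cathepsin K, was called higher (1.67, SE 0.36, adjusted p = 4.1e-04, from 6 of 36 cells) and Spp1 lower, with a median of 0.06. None of the 43 Ctsk UMIs lay in the 18 members with 3 or more UMIs of the 58 genes, and it was not called without the replicate block (adjusted p = 0.38) or without pool 2 hashtag 5 (adjusted p = 0.14). Of 10 tested MHC class II genes 1 was lower, with a median of -0.67, beside 0.921% of all genes tested and a median of -0.17. On counts simulated for the same 3 samples with 200 of 8805 genes changed 4-fold, 74 were recovered (37%) and 190 had the right sign. The simulation gave every gene the same fixed spread, which was not estimated from these data. On those counts a 4-fold change was more often missed than called, and the share missed in the data is not known from it.

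For surface tags of dividing and non-dividing monocyte/macrophage cells, the 3 samples of the fit allow no exact permutation p below 0.25, and 0 of 10 tags had an unadjusted p under 0.05. CD45 differed by -0.159 ± 0.127 (SD, n = 3) on the centred log ratio scale. With samples of at least 5 cells in each arm, chosen after seeing the data, CD45 was lower in dividing cells in 6 of 6 samples, by 0.192 on average (SD 0.096; exact permutation p = 0.0312, the smallest 6 samples allow), and did not pass adjustment over 10 tags (adjusted p = 0.312). Ly6C differed by -0.111 ± 0.260 (SD, n = 6; exact permutation p = 0.375) and CD11b by -0.0911 ± 0.345 (exact permutation p = 0.531).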

How the data were processed

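CD11b+ cells of control and glioma-bearing mouse brains were read by CITE-seq in 3 pools of 6 hashtagged samples. The deposited values are raw UMI counts per gene and antibody tag, made by the authors with Cell Ranger (3.0.1 and 4.0.0 per the submitters' processing notes, which also name bcl2fastq 2.20.0.422, Seurat 3 and mm10; 3.1.0 and 4.0.0 per the file headers). The matrices were already restricted to called cells, and the sources used here do not say how intronic or multiply aligned reads were counted. Free RNA was not removed here.

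Cells with at least 500 RNA UMIs, under 10% mitochondrial UMIs and a top hashtag holding at least 80% of hashtag UMIs were kept. Cells went to the Flt3/Ccr7 sort with 2 or more UMIs of these and at most 1 of Nkg7 and Gzma, to the Nkg7/Gzma sort with 2 or more and above both other sums, and otherwise to the monocyte/macrophage sort with 2 or more of its 4 genes and more than of Nkg7 and Gzma. Non-dividing cells had 0 cycle UMIs. Members and gene lists were chosen with earlier results of these data known, so no list is independent evidence. Genes named with values are the 10 largest rises outside the cycle lists and 6 within them, and the 10 largest falls. Up to 4 called genes of each list are named as well. Genes set out cell by cell and in the tests of tags among dividing cells, and the call of Cd81, were chosen after their values were seen.

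UMIs summed per hashed sample and arm (at least 10 cells in each) were tested with edgeR 4.0.16 (TMM scaling, filterByExpr, quasi-likelihood F test, hashed sample as a block, Benjamini-Hochberg) in R 4.3.3. The block follows from the design, since both arms come from the same hashed sample. Tags were averaged per sample as centred log ratios over the 10 tags read in every pool and tested by exact sign permutation, two-sided, in scipy 1.17.1. The fit was tested on simulated data. Alternatives were DESeq2 1.42.0, other scalings, filters, thresholds and sorts, thinning to 2000 UMIs, leaving out pools or hashed samples, and tag scales; those that count other cycle genes, leave out Mki67, leave out cells with T, B, NK or neutrophil markers or leave out single hashed samples were added after seeing the data.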

Additional observations from a re-analysis of the deposited data

Results flagged for a closer look

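In 2 of 37 groups of hashed samples 1 sample lay far from the others, where chance gives about 1 group in 20. The TMEM119 tag difference between dividing and non-dividing monocyte/macrophage cells, in samples of at least 5 cells, was 0.838 (centred log ratio) in pool 1 hashtag 5 and between -0.0091 and 0.267 in the other 5 samples. The CD74 tag difference between unsorted and monocyte/macrophage members was 2.50 in pool 3 hashtag 5, which had 1 cell of each kind, and between -0.381 and 0.851 in the other 7 samples.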

How the results depend on the processing

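The dividing share followed the threshold. At 3 or 8 cycle UMIs it was 1.63% or 0.327% of monocyte/macrophage cells and 5.25% or 1.48% of unsorted cells, and with 0 microglial UMIs it was 0.740% and 2.03%. Thinning to 2000 UMIs gave 0.236% and 0.991%, 0% of Flt3/Ccr7 cells, and a makeup of 50% monocyte/macrophage and 43.3% unsorted. The thinned unsorted set held 1312 cells against 610 at full depth, so it is not the same set. An exclusive sort also gave 0% of Flt3/Ccr7 cells. With 3 or more UMIs of the 58 other genes, the makeup was 60.3% and 32.8%, the monocyte/macrophage share 0.476% and its monocyte side 62.9%. Without Mki67 they were 59.7%, 32.3% and 0.504%. Leaving out 1 pool, the makeup ran from 59.2% to 83.0% monocyte/macrophage and 9.43% to 36.7% unsorted, the shares from 0.680% to 1.22% (monocyte/macrophage), 0.317% to 0.690% (Nkg7/Gzma), 0% to 0.787% (Flt3/Ccr7) and 2.12% to 4.36% (unsorted), and the monocyte side from 65.9% to 89.7%.

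Without the replicate block, 55 genes were higher and 7 lower, and 62 of the 179 calls remained. DESeq2 gave 71 and 13 (81 shared), library size alone 110 and 49 (147 shared). Members with 3 of the other cycle UMIs gave 122 and 142 at 5 cells a sample. Without T, B, NK or neutrophil-marked cells the counts were 42 and 73, or 57 and 150 at 5 cells a sample. Leaving out a pool or a hashed sample gave 50 to 99 higher and 40 to 81 lower. The other settings fitted kept both counts within 1.5 times. Cd209a, with no UMI in the 36 dividing cells, has no fold there to turn, and its fitted values were 0.68 at 5 cells a sample and 1.17 with 3 other cycle UMIs. Signs turned at 5 cells a sample for Mgl2 (0.081), and with 3 other cycle UMIs for Clec10a (0.012), Mgl2 (0.42), Ctsk (-9.91) and Saa3 (-10.44), fitted values that are no bounds. Without marked cells they turned for Hp (-0.42, or -0.17 at 5 cells), Chil3 (-0.59), Ifitm6 (-0.50) and Mgl2 (0.42). The causes were not tested.

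On log2 raw tag counts TMEM119 of unsorted minus monocyte/macrophage members was -0.39 and CD11b of the latter minus microglial dividing cells 0.90. Per 1000 tags, the first pair's CD45 and TMEM119 (-0.820, 2.01) and the second pair's CD45 and CD49d (0.529, 0.455) no longer passed, nor did CD45 and TMEM119 of the first pair with 3 other cycle UMIs (-0.835, 1.16) or 0 microglial UMIs (-1.26, 1.81). Leaving out 1 pool gave -1.10 to -0.720 and 1.24 to 1.58 for the first pair, and for the second -0.648 to -0.433 (CD11b), 0.570 to 0.913 (CD45), 0.552 to 0.683 (CD49d) and -2.37 to -1.87 (TMEM119). No tag passed between dividing and non-dividing cells in any of these (0).

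No fit could be made at 20 cells or 8 cycle UMIs, without pool 2, or for the Nkg7/Gzma and Flt3/Ccr7 sorts and the difference between sorts. With 36 members in 3 samples, 37% of simulated 4-fold changes were found, so a gene without a call is not shown to be alike in both arms.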
